A study of Homo sapiens with 4 samples.

Results

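The amino acid and peptide transporters of the solute carrier families SLC1, SLC3, SLC6, SLC7, SLC15, SLC36, SLC38 and SLC43 were described in Reh-6-MPR cells. The members were taken by name, as every protein-coding gene of the expression table whose symbol carries 1 of these family names followed by a number. This gave 46 of 15471 protein-coding genes and of 29833 genes in all. The families were chosen with earlier results of these data known. The mRNA levels of Reh-6-MPR, a derivative of the human B-ALL cell line Reh that was made resistant to 6-mercaptopurine (6-MP) by growing it in the drug (B-ALL is B-cell acute lymphoblastic leukemia), were measured by poly(A) RNA sequencing. The cells were kept for 48 h in PBS as vehicle, in histidine at 4 mM, in 6-MP at 1 μg/mL, or in both agents, and all 4 cultures were of the same resistant line. Each treatment had 1 library, so the differences below lack any replicate check and carry no p-value. The comparisons ask what histidine did to the cells with and without 6-MP, and here they are read for the genes that bring amino acids, histidine included, across membranes.

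Amino acids cross membranes on carriers. Sodium coupled carriers such as those of SLC1 and SLC38 load cells with small neutral amino acids and glutamine, and exchangers such as SLC7A5 then trade these for large neutral and essential amino acids, histidine among them. The SLC7 light chains reach the plasma membrane bound to a heavy chain, which is SLC3A2 (CD98) for most of them, so the 2 kinds of subunit work as 1 carrier. In lymphoid leukemias this system feeds protein and nucleotide synthesis. Starvation for amino acids and other stresses act through the transcription factor ATF4, which binds the C/EBP-ATF response element, and several transporter genes are known targets of it. E-boxes, with the core CACGTG, are bound by MYC and by the lysosomal regulators TFEB and TFE3.

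Expression was deposited as FPKM, a read count set relative to transcript length and library depth, so that levels can be compared between genes. The FPKM of a gene climb in steps of 1 read, and the reads behind all 29833 genes were recovered from these steps. The libraries held 12899122 reads for the combined treatment to 15486376 for histidine. Intervals in brackets are exact 95% Clopper-Pearson intervals of the log2 ratio of a gene's recovered reads per library total, called the log2 read ratio. They cover counting error only and compare libraries rather than treatments. Differences of log2(FPKM + 1), a scale that compresses the values of low genes, are called log2 differences. The library of the combined treatment stood apart from the other 3. It had reads in 25443 genes, against 23635 to 23978 in the others, and the median log2 difference from vehicle over the 12750 genes whose mean FPKM reached 1 was 0.13, against 0.01 with histidine and 0.0039 with 6-MP. Scaling the libraries by the median ratio brings that median near 0 by construction (4.07e-05). Log2 differences of the combined treatment from vehicle are to be read against about 0.13. Its log2 read ratios to vehicle are to be read against about 0.16, the offset of that scaling. The 13 B-lineage marker genes of a list (CD79A, PAX5 and others) all reached a mean FPKM of 1, and their summed FPKM was 2039.9 to 2162. None differed by a log2 value of 1, where 6.53% of all genes did in the combined treatment against vehicle. By a log2 difference of 0.58, 2 were higher there (VPREB3 at 0.91 and MME at 0.74, all genes 16%) and 1 lower (CD24 at -0.59, all genes 5.65%). Of 6 monocyte and granulocyte markers in the table, MPO was the highest. It was at 27.7, 30.5, 26.4 and 41.0 FPKM in vehicle, histidine, 6-MP and the combined treatment, and ITGAM at 3.14, 3.16, 3.06 and 19.2 FPKM. CSF1R (0.430 to 1.25 FPKM) and LYZ (0.0375 to 1.39 FPKM) were also highest in the combined treatment, while CD14 and FCN1 stood at 0 to 0.170 FPKM. The sum of the 6 was 32.0, 34.4, 30.1 and 62.9 FPKM. The 4 T and NK cell markers summed to 1.78, 2.83, 1.28 and 4.01 FPKM, mostly from NKG7, and the 5 erythroid and stromal markers to 1.17, 1.29, 1.25 and 2.62 FPKM. The part of this library-wide shift in the values of single transporters was not tested. In bulk RNA, fewer cells of a type and less RNA per cell cannot be told apart.

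Of the 46 transporters, 21 reached a mean FPKM of 1 across libraries and entered the counts, and 25 were below. Their levels spanned a wide range, with the exchangers and sodium coupled neutral carriers on top. The summed FPKM of all 46 was 416.0 in vehicle, 425.6 in histidine, 431.7 in 6-MP and 452.5 in the combined treatment, which is 0.167% to 0.187% of all FPKM. In vehicle, SLC7A5 was the highest, above 97.3% of protein-coding genes, followed by SLC38A2 and SLC38A5, and the top 5 members made up 59.0% of the sum. Neighbours in the vehicle order whose counting intervals overlapped were SLC38A1 and SLC7A1, SLC6A6 and SLC43A1, SLC38A10 and SLC43A3, SLC43A3 and SLC7A3, SLC1A4 and SLC7A6, SLC38A7 and SLC15A4, SLC38A9 and SLC7A7, and SLC7A7 and SLC6A8. In the combined treatment SLC38A2 and SLC7A5 overlapped at the top, SLC3A2 held the third place, against the seventh in vehicle, and the top 5 share was 54.4%.

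**Figure D1:**
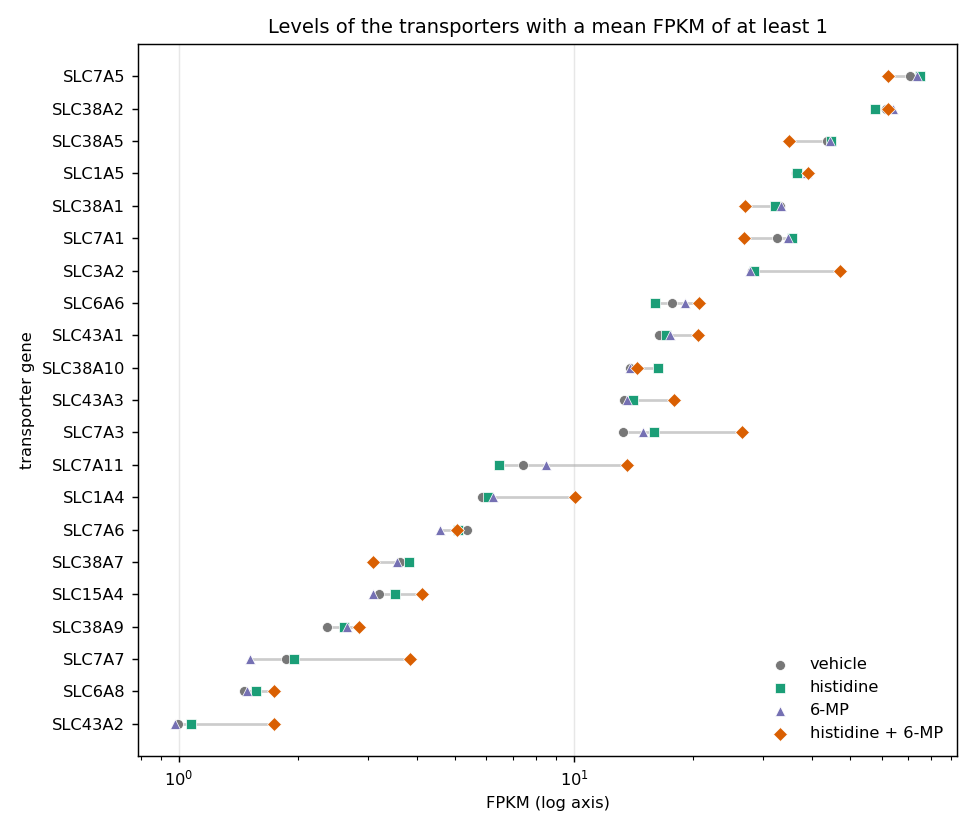
FPKM (x axis, log scale) of the 21 transporters with a mean FPKM of at least 1 (y axis), 1 symbol per library and 1 library per treatment. The single-agent symbols lie close to vehicle in most rows, and the combined treatment stands to the right for SLC3A2 (47.1 FPKM against 28.3 in vehicle) and SLC7A3 (26.6 against 13.3) and to the left for SLC38A5 (35.0 against 43.7).

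The sequences before the transcription starts of SLC7A5 and SLC38A5, histidine carriers of the plasma membrane, are shown. Their genes hold the first and the third of the levels in vehicle, and each holds an E-box. They are from RefSeq (GRCh38.p14), 250 bases on the minus strand in the direction of the gene, chr16:87869508-87869757 for SLC7A5 and chrX:48470261-48470510 for SLC38A5, with the E-box in capitals.
SLC7A5: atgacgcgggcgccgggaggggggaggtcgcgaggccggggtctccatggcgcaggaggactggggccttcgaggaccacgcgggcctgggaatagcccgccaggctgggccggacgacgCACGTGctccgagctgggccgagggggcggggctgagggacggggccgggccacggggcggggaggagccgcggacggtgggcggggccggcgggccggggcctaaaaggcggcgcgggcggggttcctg
SLC38A5: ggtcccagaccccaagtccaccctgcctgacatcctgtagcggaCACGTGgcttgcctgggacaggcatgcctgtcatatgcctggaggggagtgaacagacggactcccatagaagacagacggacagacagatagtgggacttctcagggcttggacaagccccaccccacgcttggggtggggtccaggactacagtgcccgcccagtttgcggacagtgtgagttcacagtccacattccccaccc
In these windows the first base of the E-box lies 130 and 206 bases before the start. A match is a description of the letters and not evidence of binding.

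A list of 6 known carriers of histidine was used, which need not be complete. Among them, SLC7A5 and SLC38A5 of the plasma membrane were high and slightly lower in the combined treatment. SLC15A3 and SLC15A4 of the lysosome were low and higher, and SLC38A3 and SLC7A8 were scarcely read. SLC7A5 (LAT1; chr16:87830023-87869507, minus strand), the large neutral amino acid exchanger that also takes histidine, was at 70.7 FPKM in vehicle, 75.2 in histidine, 73.9 in 6-MP and 62.3 in the combined treatment, from 3830 to 5546 reads. SLC38A5 (SNAT5; chrX:48458537-48470260, minus strand), a sodium coupled carrier of glutamine and histidine, was at 43.7, 44.7, 44.6 and 35.0 FPKM. Both were lowest in the combined treatment. The log2 read ratio of the combined treatment to vehicle was -0.18 (-0.24 to -0.12) for SLC7A5 and -0.32 (-0.41 to -0.23) for SLC38A5, and to 6-MP alone it was -0.25 (-0.31 to -0.19) and -0.35 (-0.43 to -0.26). With histidine alone the ratios to vehicle were 0.09 (0.03 to 0.15) and 0.03 (-0.05 to 0.11). After 48 h with histidine and no 6-MP, the FPKM of these carriers were 1.06 and 1.02 times those of vehicle.

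SLC15A4 (PHT1; chr12:128793194-128823958), which moves histidine and short peptides out of the lysosome, was at 3.21, 3.53, 3.10 and 4.13 FPKM in vehicle, histidine, 6-MP and the combined treatment. SLC15A3 (PHT2; chr11:60937060-60952653), its lysosomal paralog, was at 0.422, 0.734, 0.516 and 1.31 FPKM, from 42, 79, 55 and 117 reads, and so stayed below the filter. SLC15A3 was lowest in vehicle and highest in the combined treatment. Its log2 read ratio to vehicle was 0.80 (0.24 to 1.37) with histidine and 1.63 (1.11 to 2.17) with both agents, while that of SLC15A4 was 0.14 (-0.11 to 0.39) and 0.36 (0.12 to 0.61), an interval that no longer excluded 0 after scaling by the median ratio. Within a library, the ratio of SLC15A3 to SLC15A4 does not depend on how libraries are scaled, and it was 2.40 times (1.60 to 3.64) that of vehicle in the combined treatment. It does not remove the gain of low genes in that library, where the 5449 other protein-coding genes below the filter were together 1.71-fold above vehicle. The part of that gain in the SLC15A3 value was not tested. SLC38A3 (SNAT3), a liver and kidney carrier of glutamine and histidine, had 13, 9, 14 and 9 reads, and SLC7A8 (LAT2) had 1, 0, 0 and 2, where up to 3 reads are within what a count of 0 allows. The 6 listed histidine carriers summed to 118.2, 124.2, 122.3 and 103.0 FPKM. Of them, 3 had a mean FPKM of at least 1, and the median log2 difference of these for the combined treatment against vehicle was -0.18. The 6 lysosomal carriers in the table summed to 10.1, 11.3, 10.5 and 12.2 FPKM.

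The heavy chain SLC3A2 (CD98; chr11:62856004-62888880, plus strand) was at 28.3 FPKM in vehicle, 28.6 in histidine, 27.9 in 6-MP and 47.1 in the combined treatment, from 2588, 2831, 2732 and 3881 reads. The 3 other libraries lay within 1 FPKM of each other and the combined treatment lay above all of them. Its log2 read ratio was 0.73 (0.66 to 0.81) to vehicle, 0.76 (0.69 to 0.83) to 6-MP and 0.72 (0.65 to 0.79) to histidine, or 1.66-, 1.69- and 1.65-fold in FPKM. Of its light chain partners in the table (SLC7A5, SLC7A6, SLC7A7, SLC7A8 and SLC7A11), the summed FPKM was 85.3, 88.6, 88.5 and 84.9. The ratio of SLC3A2 to this sum was 0.332, 0.323, 0.315 and 0.555. The mRNA of the light chains as a whole was thus level across libraries while that of the heavy chain was not. Against SLC7A5 alone, the ratio in the combined treatment was 1.89 times (1.77 to 2.02) that in vehicle, against 0.951 times (0.889 to 1.02) with histidine and 0.942 times (0.881 to 1.01) with 6-MP.

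The makeup of the light chains differed between libraries. SLC7A11 (xCT; chr4:138164097-138242349), which imports cystine in exchange for glutamate and so supplies glutathione synthesis, was at 7.41, 6.45, 8.47 and 13.6 FPKM in vehicle, histidine, 6-MP and the combined treatment, from 1023, 964, 1253 and 1697 reads. It was lowest with histidine alone and highest with both agents. Its log2 read ratio to vehicle was -0.20 (-0.33 to -0.07) with histidine, 0.19 (0.07 to 0.31) with 6-MP and 0.88 (0.77 to 0.99) with both, and the combined treatment was 2.11-fold higher than histidine alone. SLC7A7 (y+LAT1; chr14:22773222-22829820), an exchanger of cationic for neutral amino acids, was at 1.87, 1.95, 1.51 and 3.84 FPKM, from 137, 155, 119 and 254 reads. The combined treatment was again above the other 3, with a log2 read ratio of 1.04 (0.74 to 1.35) to vehicle and 1.34 (1.02 to 1.67) to 6-MP. SLC7A6 (y+LAT2), the closest relative of SLC7A7, was at 4.58 to 5.37 FPKM with its highest value in vehicle, and SLC7A6OS lies opposite to it over 17321 bases at 2.83 to 3.17 FPKM. SLC7A11 made up 8.68%, 7.28%, 9.57% and 16.1% of the light chain FPKM, and SLC7A5 made up 82.8%, 84.8%, 83.5% and 73.4%. SLC7A9 and the second heavy chain, SLC3A1, the pair of the kidney cystine carrier, stayed below 0.1 FPKM in every library.

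**Figure D2:**
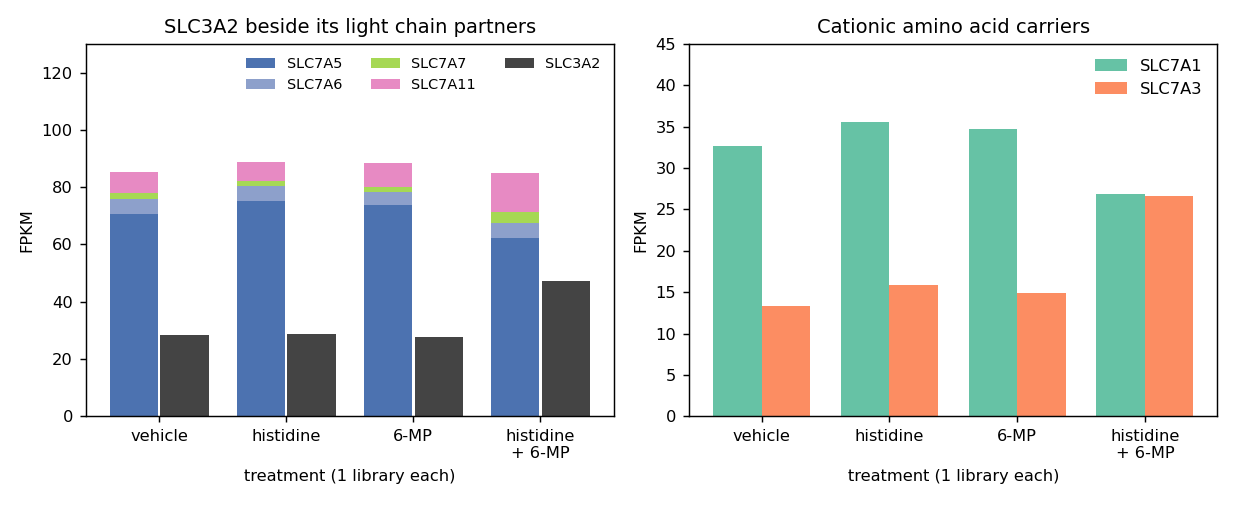
FPKM (y axis) in the 4 libraries (x axis, 1 library each, no error bars): on the left the stacked light chains SLC7A5, SLC7A6, SLC7A7 and SLC7A11 beside the heavy chain SLC3A2, and on the right the cationic carriers SLC7A1 and SLC7A3. The light chain stacks stay between 84.9 and 88.6 FPKM while SLC3A2 reaches 47.1 in the combined treatment, where SLC7A1 and SLC7A3 stand at 26.9 and 26.6.

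The 2 cationic carriers in the table lay on opposite sides of vehicle in the combined treatment. SLC7A1 (CAT1; chr13:29509414-29595688), the widely used importer of arginine and lysine, was at 32.6 FPKM in vehicle, 35.6 in histidine, 34.7 in 6-MP and 26.9 in the combined treatment. SLC7A3 (CAT3; chrX:70925579-70931125), a cationic carrier known mainly from brain and early development, was at 13.3, 15.9, 14.9 and 26.6 FPKM, from 431, 558, 519 and 779 reads. The combined treatment was the lowest library for SLC7A1 and the highest for SLC7A3. The log2 read ratio to vehicle was -0.28 (-0.35 to -0.21) for SLC7A1 and 1.00 (0.83 to 1.18) for SLC7A3. SLC7A3 made up 28.9%, 30.8%, 30.1% and 49.8% of the FPKM of the pair, whose sum was 45.9, 51.5, 49.6 and 53.5. The ratio of SLC7A3 to SLC7A1 was 2.44 times (2.14 to 2.78) that of vehicle with both agents and 1.10 times (0.958 to 1.26) with histidine alone.

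Of the SLC1 family, SLC1A5 (ASCT2; chr19:46774883-46788594), the main glutamine importer of many tumor cells, was at 36.4, 36.7, 38.9 and 39.1 FPKM in vehicle, histidine, 6-MP and the combined treatment. SLC1A4 (ASCT1; chr2:64988477-65023865), its relative for serine, alanine and cysteine, was at 5.86, 6.06, 6.22 and 10.1 FPKM, from 582, 651, 662 and 902 reads. SLC1A5 was nearly level, and the combined treatment was above the other 3 libraries for SLC1A4. The log2 difference of SLC1A5 for the combined treatment against vehicle was 0.10, below the all-gene median of 0.13. The log2 read ratio was 0.10 (0.01 to 0.20) for SLC1A5 and 0.78 (0.63 to 0.94) for SLC1A4. The ratio of SLC1A4 to SLC1A5 was 1.60 times (1.41 to 1.81) that of vehicle. LINC02245 spans SLC1A4 on the opposite strand at 0.572 to 0.894 FPKM, and whether the counting used strand is not given in the sources used here. The glutamate carriers SLC1A1, SLC1A3 and SLC1A7 were at or below 0.112 FPKM in every library.

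The SLC38 family held the second and the third level in vehicle, histidine and 6-MP. SLC38A2 (SNAT2; chr12:46358188-46372773), the amino acid regulated carrier of system A, was at 61.7 FPKM in vehicle, 57.6 in histidine, 64.0 in 6-MP and 62.5 in the combined treatment. SLC38A1 (SNAT1; chr12:46183063-46270017), a glutamine carrier of the same system whose gene lies 88170 bases from SLC38A2, was at 33.2, 32.2, 33.4 and 27.1 FPKM. SLC38A2 was lowest with histidine and SLC38A1 with both agents. The log2 read ratio of the combined treatment to vehicle was 0.02 (-0.04 to 0.07) for SLC38A2 and -0.29 (-0.36 to -0.23) for SLC38A1. Set against SLC38A2 in the same library, SLC38A1 was at 0.806 times (0.760 to 0.854) and SLC38A5 at 0.791 times (0.736 to 0.850) its ratio in vehicle. SLC38A10, a less studied member, was at 13.9, 16.3, 13.8 and 14.4 FPKM and had a log2 read ratio to vehicle of 0.24 (0.14 to 0.33) with histidine alone. The lysosomal members SLC38A7 (SNAT7), a glutamine exporter, and SLC38A9, the arginine sensor of the mTORC1 pathway, were at 3.10 to 3.82 and 2.37 to 2.86 FPKM.

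The SLC43 family, made of uniporters, was highest in the combined treatment in each of its 3 members. In that library 63.6% of all 12750 genes were above vehicle, and the share with their highest value there was not counted. SLC43A1 (LAT3; chr11:57484534-57515780), a carrier of branched-chain amino acids and phenylalanine, was at 16.4, 17.1, 17.5 and 20.6 FPKM in vehicle, histidine, 6-MP and the combined treatment. SLC43A3 (chr11:57406954-57427580), which is known as a carrier of purine nucleobases, 6-MP included, rather than of amino acids, was at 13.4, 14.1, 13.6 and 17.9 FPKM. SLC43A2 (LAT4) was at 0.995, 1.07, 0.977 and 1.74 FPKM. In each gene the 3 other libraries lay close together below the combined treatment. The log2 read ratio to vehicle was 0.33 (0.19 to 0.46) for SLC43A1, 0.42 (0.29 to 0.55) for SLC43A3 and 0.81 (0.51 to 1.11) for SLC43A2. As log2 differences, SLC43A1 (0.31) and SLC43A3 (0.39) lay below the upper quartile of all genes (0.41), and SLC43A2 (0.46) lay above it. With 6-MP alone the ratio of the nucleobase carrier SLC43A3 was 0.02 (-0.11 to 0.16). SLC43A1 and SLC43A3 are neighbours on the same strand, 56953 bases apart.

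Of the SLC6 family, 10 of 12 members were below the filter. SLC6A6 (TauT; chr3:14402576-14489349), the taurine carrier, was at 17.7 FPKM in vehicle, 16.0 in histidine, 19.1 in 6-MP and 20.7 in the combined treatment, with a log2 read ratio to vehicle of -0.14 (-0.23 to -0.05) with histidine and 0.23 (0.14 to 0.32) with both. SLC6A8, the creatine carrier, was at 1.46 to 1.74 FPKM. SLC6A16, an orphan member, had 4, 10, 9 and 36 reads, and its log2 read ratio of the combined treatment to vehicle was 3.32 (1.84 to 5.27), the highest of the members with over 3 reads in each library. Its level nonetheless stayed at or below 0.778 FPKM. Of the peptide carriers, SLC15A2 (PEPT2) had 49, 84, 36 and 107 reads, or 0.572, 0.906, 0.392 and 1.39 FPKM. Its log2 read ratios to vehicle were 0.66 (0.14 to 1.20) with histidine and 1.28 (0.78 to 1.80) with both. SLC6A16 and SLC15A2 lie below the filter, where the other protein-coding genes were together 1.71-fold above vehicle with both agents. The proton coupled SLC36 family, which includes exporters of the lysosome, summed to 0.493, 0.593, 0.629 and 0.874 FPKM over 3 genes.

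By differences of log2(FPKM + 1), no transporter reached a value of 1 in any comparison, although the log2 read ratio to vehicle was 1.00 for SLC7A3 and 1.04 for SLC7A7. With a pseudocount of 0.1 the count was 1 in each comparison of the combined treatment, and with TPM scaling, which let 26 members past the filter, it was 4 against vehicle, 4 against 6-MP and 2 against histidine. With the pseudocount of 1 the count was 0 of 21 for histidine against vehicle, where 1.33% of all 12750 genes reached it, and 0 for 6-MP against vehicle (1.18%). It was also 0 for the combined treatment against vehicle (6.53%), against 6-MP (6.02%) and against histidine (5.55%), and 0 for the departure from additivity of the 2 agents (6.76%). At a log2 difference of 0.58, about 1.5-fold, 5 of 21 (23.8%) were higher in the combined treatment than in vehicle, against 16% of all genes. They were SLC1A4, SLC3A2, SLC7A3, SLC7A7 and SLC7A11, and 5 were also past it against 6-MP (all genes 15.4%) and against histidine (14%), comparisons that share the combined library. None was lower by 0.58 than in vehicle (all genes 5.65%), 6-MP (5.16%) or histidine (5.64%). With 1 agent, none differed by 0.58 in either direction, where 3.69% of all genes did with histidine and 3.61% with 6-MP. With the libraries scaled by the median ratio, 3 of the 5 remained past 0.58 against vehicle, namely SLC7A3, SLC7A7 and SLC7A11, against 11.1% of all genes.

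**Figure D3:**
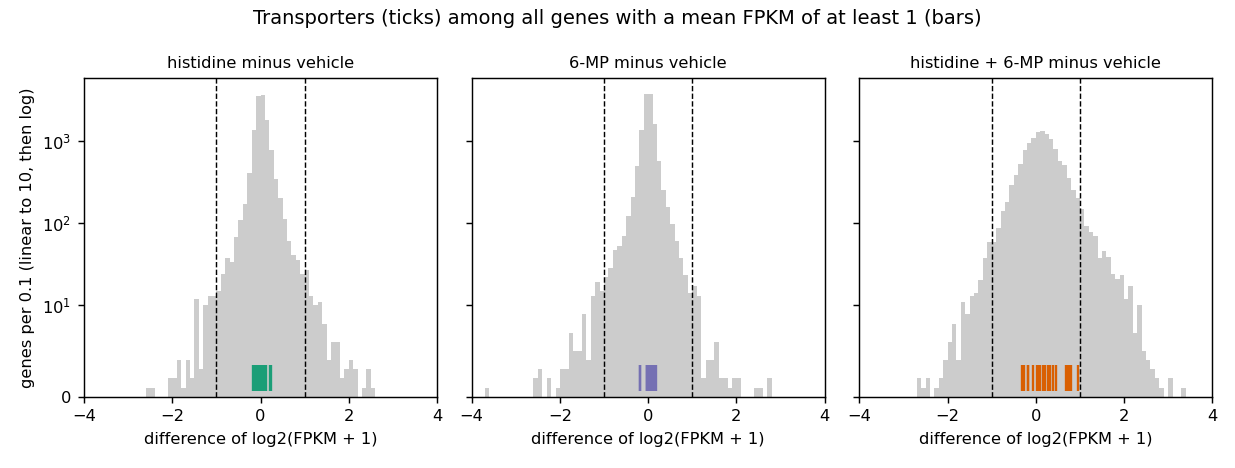
Number of genes per bin of 0.1 (y axis, linear to 10 and then log) by difference of log2(FPKM + 1) from vehicle (x axis) for all 12750 genes that reached a mean FPKM of 1 (bars), with the 21 transporters as ticks and dashed lines at -1 and 1. The ticks run from -0.17 to 0.24 with histidine, from -0.19 to 0.17 with 6-MP and from -0.31 to 0.95 with both, inside the dashed lines in each panel.

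The median log2 difference of the 21 transporters was 0.05 with histidine, 0.03 with 6-MP and 0.20 with both agents against vehicle, where that of all genes was 0.01, 0.0039 and 0.13. Against 6-MP and against histidine, the median for the combined treatment was 0.12 and 0.11, where that of all genes was 0.13 and 0.11. Smaller differences could be resolved from counting error in the highly read members. With histidine alone, the 95% interval of the read ratio excluded 0 for 7 members (33.3%, against 21.6% of all genes), with SLC38A10, SLC7A1, SLC7A3 and SLC7A5 above vehicle and SLC6A6, SLC7A11 and SLC38A2 below. With 6-MP alone it did so for 7 (against 17.9%), with SLC7A6 below vehicle and SLC6A6, SLC7A11, SLC7A5, SLC1A5, SLC7A1 and SLC38A2 above. After scaling by the median ratio the split with histidine was 4 above and 4 below, SLC38A1 being the added one (all genes 9.95% and 12.4%), and with 6-MP it was 4 and 1, without SLC1A5 and SLC38A2 (9% and 9.06%). With both agents it lay above 0 for 12 (57.1%, against 42.7%) and below 0 for 4 (19.0%, against 20.8%), the latter being SLC7A5, SLC7A1, SLC38A1 and SLC38A5. With that scaling the split for both agents was 8 above and 7 below, and that of all genes was 30.2% and 30.8%. The 8 were SLC1A4, SLC3A2, SLC43A1, SLC43A2, SLC43A3, SLC7A3, SLC7A7 and SLC7A11, and SLC38A2, SLC38A7 and SLC7A6 joined the members below.

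**Figure D4:**
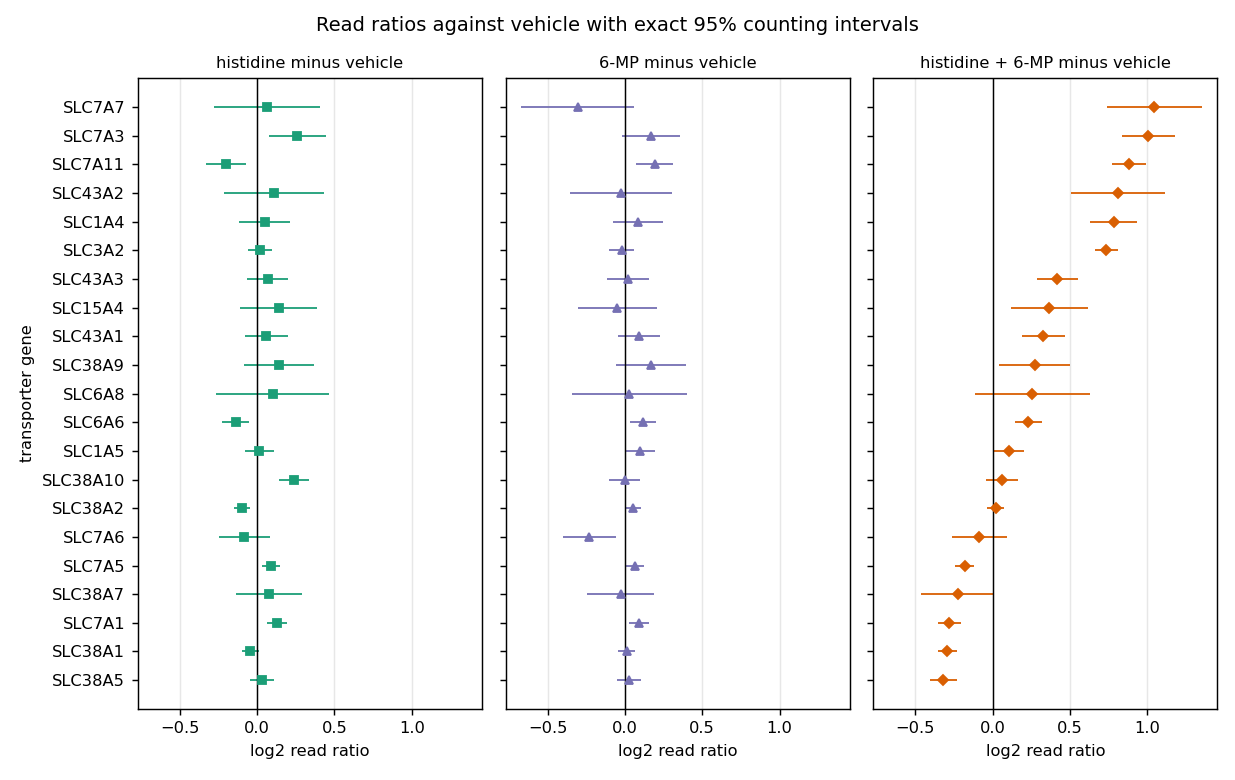
Log2 read ratio to vehicle (x axis) of the 21 transporters (y axis) for histidine, 6-MP and both agents, with exact 95% counting intervals as bars. In the first 2 panels the points stay between -0.30 and 0.26, and in the third they run from -0.32 for SLC38A5 to 1.04 for SLC7A7.

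The 25 members below the filter had a read in 20, 14, 17 and 23 cases and over 3 reads in 9, 10, 11 and 13. Their reads summed to 263 in vehicle, 356 in histidine, 298 in 6-MP and 491 in the combined treatment. Scaled to library depth (RPM), that was 18.4, 23.0, 19.4 and 38.1. The combined treatment was 2.07-fold (1.78 to 2.42) above vehicle, and the 5449 other protein-coding genes below the filter were 1.71-fold (1.70 to 1.73) above it, so more reads in the combined library were common to low genes of either kind. Next to the filter lay SLC15A3 (0.744) and SLC15A2 (0.814) below and SLC43A2 (1.20) and SLC6A8 (1.56) above, in mean FPKM.

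Other parts of the amino acid system were read from lists. Of 15 amino acid carriers of other families past the filter, none reached a log2 difference of 1 against vehicle. Of all genes, 1.33% did with histidine, 1.18% with 6-MP and 6.53% with both. In the combined treatment 4 of 15 were higher by 0.58 (all genes 16%) and 2 lower (5.65%). The higher ones were the mitochondrial carrier SLC25A29 (0.93), the lysosomal cationic amino acid exporter SLC66A1 (0.91), SLC17A7 (0.78) and SFXN3 (0.67). The lysosomal sialic acid carrier SLC17A5 (-0.93) and the mitochondrial glutamate carrier SLC25A22 (-0.61) were the lower ones. Of 19 genes of lysosomal amino acid sensing, none reached 0.58 in any of the 5 comparisons, where 16% of all genes were higher and 5.65% lower by it in the combined treatment against vehicle. Of histidine metabolism 3 genes were past the filter, too few to set against the shares of all genes. None of the 3 reached 0.58 in any of the 5 comparisons (all genes 16% higher and 5.65% lower in the combined treatment against vehicle). The other 7 genes of this list lay below the filter. Of the enzymes of histidine breakdown among these, AMDHD1 was at 0.369, 0.730, 0.393 and 1.26 FPKM in vehicle, histidine, 6-MP and the combined treatment, from 14, 30, 16 and 43 reads. HAL was at 0.122, 0.276, 0.101 and 0.151 FPKM, from 9, 22, 8 and 10 reads. The intervals of their log2 read ratio of histidine to vehicle were wide, 0.03 to 2.02 for AMDHD1 and 7.12e-05 to 2.48 for HAL. FTCD had 4, 4, 2 and 16 reads and UROC1 0, 0, 1 and 1.

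The genes of the ATF4 response to amino acid shortage, a list also chosen with earlier results of these data known, differed more. Of 16 past the filter, 6 were higher by a log2 value of 1 in the combined treatment against vehicle and 0 were lower, against 6.53% of all genes in either direction, and their median was 0.36. The transcription factor ATF5 was at 11.3 FPKM in vehicle, 10.8 in histidine, 16.2 in 6-MP and 58.4 in the combined treatment. The log2 differences were 2.27 for ATF5, 1.80 for ATF3, 1.49 for CEBPB, 1.48 for the mTORC1 inhibitor DDIT4, 1.17 for the pseudokinase TRIB3 and 1.05 for DDIT3. The serine synthesis enzymes PHGDH (-0.17), PSAT1 (-0.17) and PSPH (-0.41) did not share that direction, nor did EIF4EBP1 (-0.36). ATF4 mRNA itself was at 271, 261, 287 and 270 FPKM. SESN2, a leucine sensor, stood at -0.62 with histidine alone. The asparagine synthetase gene ASNS was below the filter at 0.457, 0.607, 0.546 and 1.24 FPKM in vehicle, histidine, 6-MP and the combined treatment, from 32, 46, 41 and 78 reads.

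**Figure D5:**
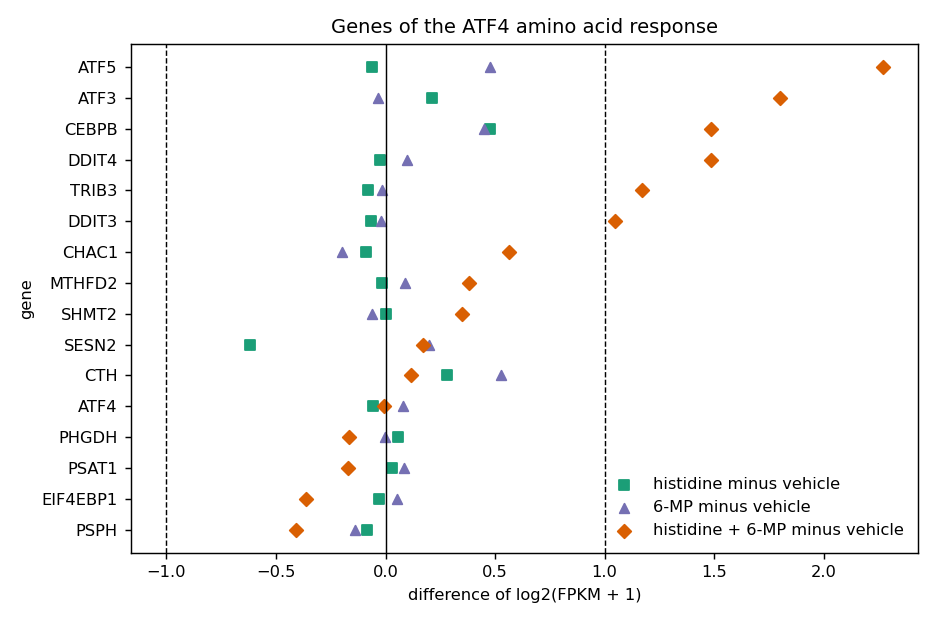
Difference of log2(FPKM + 1) from vehicle (x axis) for 16 genes of the ATF4 response that reached a mean FPKM of 1 (y axis), 1 symbol per treatment, with dashed lines at -1 and 1. In the combined treatment 6 genes pass 1, with ATF5 at 2.27, while ATF4 itself lies near 0.

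The letters of the ATF4 and E-box motifs were searched on both strands from 250 bases before to 50 after RefSeq starts (GRCh38.p14), for which 17 of the 21 transporters had 31 windows. The genes with no entry were SLC43A3, SLC6A6, SLC7A3 and SLC7A11. TGATGNAA, the C/EBP-ATF response element, was found in 5 windows (16.1%), 1 in each of 5 genes, where 1.91% of the 11903 windows of protein-coding genes past the filter and 3.62% of all 35116 windows held it. The 5 sites are shown in the direction of the gene with the motif in capitals, since the values of these genes can be set beside them. They lie at chr2:64989382-64989409 (plus strand) for SLC1A4, chr11:62881726-62881748 (plus) for SLC3A2, chr19:46784894-46784921 (minus) for SLC1A5, chr12:46266503-46266530 (minus) for SLC38A1 and chr13:29595664-29595691 (minus) for SLC7A1.
SLC1A4: cggctcccgtTTGCATCAtctccagccg
SLC3A2: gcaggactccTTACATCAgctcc
SLC1A5: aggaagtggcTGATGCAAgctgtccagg
SLC38A1: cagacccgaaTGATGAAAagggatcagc
SLC7A1: ggcgcactgcTGATGAAAcctggcgccg
In SLC1A4 and SLC3A2 the motif reads on the other strand. For SLC1A4, SLC3A2, SLC1A5 and SLC38A1 the window belongs to a start inside the gene, and for SLC7A1 to the start at the end of the gene. The outermost windows of SLC1A4, SLC3A2 and SLC1A5 held no match to TGATGNAA. The first base of the motif lies 37 bases after the start in SLC3A2 and 7 after it in SLC7A1, and before it in the others. The log2 differences of the combined treatment from vehicle were 0.69 for SLC1A4, 0.72 for SLC3A2, 0.10 for SLC1A5, -0.28 for SLC38A1 and -0.27 for SLC7A1, so the genes with these letters lay on both sides of the median.

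The E-box CACGTG was found in 6 windows (19.4%) of 6 genes, where 9.53% of the windows of protein-coding genes past the filter and 7.26% of all windows held it. Beside those of SLC7A5 and SLC38A5 printed above, they lay at chr14:22816081-22816106 for SLC7A7, chr11:57515799-57515824 for SLC43A1, chr19:46787328-46787353 for SLC1A5 and chr16:58684741-58684766 for SLC38A7, on the minus strand in each case. They are shown for the same reason.
SLC7A7: aatgaaaaggCACGTGggtctggtgg
SLC43A1: gcgggcgagtCACGTGcgcgtgaaac
SLC1A5: cgggagtggtCACGTGgacaggacgg
SLC38A7: gatgcatgctCACGTGtctccgcagc
The log2 differences of the 6 genes were 0.76 for SLC7A7, 0.31 for SLC43A1, 0.10 for SLC1A5, -0.17 for SLC38A7, -0.18 for SLC7A5 and -0.31 for SLC38A5. SLC1A5 holds both motifs, in the windows of different starts inside the gene. The window of SLC7A7 also belongs to a start inside the gene, and the E-box of SLC38A7 lies 14 bases after the start. Neither motif was read as a bound site.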

How the data were processed

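Poly(A) RNA of 4 Reh-6-MPR cultures, 1 per treatment, was sequenced by a service company with a stranded kit. The authors deposited FPKM values per gene. The submitters' processing notes name Trimmomatic, HISAT2, Cufflinks, HTSeq and GRCh38 (hg38), and the strand setting and annotation version are not given in the sources used here. The DESeq2 selection of the authors needs replicates and was not run.

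Samples were grouped by their labels. Log2 differences used a pseudocount of 1 FPKM and were counted where the mean FPKM reached 1, with thresholds of 1 and 0.58. Reads were recovered from the FPKM steps, and the gene lengths of 1393 genes, SLC6A17 among the members, were multiplied by up to 6 to come within 10% of the annotated exon length (GENCODE). Recovered reads were whole for all genes and summed to 99.9% of the totals. A floor of 3 reads was used for a count of 0. Intervals are exact 95% Clopper-Pearson intervals. The steps were checked on simulated data.

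Values in every library are given for members whose mean FPKM reached 10 and for the listed carriers of histidine. SLC7A11, SLC1A4, SLC7A7, SLC43A2, SLC15A2 and SLC6A16, the pairs whose ratios are given, SLC15A3 to SLC15A4 included, and ATF5, ASNS, SESN2 and the enzymes of histidine breakdown were chosen after their values were seen. The members and lists were chosen with earlier results of these data known. SLC7A6OS, a neighbour that is not a carrier, was left out. Some further items are not reported here. Alternatives were a pseudocount of 0.1, no filter, a mean FPKM of at least 5, median-ratio scaling, TPM scaling and the threshold of 0.58. Protein sequences were not used here. The work used numpy 2.4.6, scipy 1.17.1, pandas 2.3.3 and matplotlib 3.10.9 in Python 3.11.15.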

Additional observations from a re-analysis of the deposited data

Results flagged for a closer look

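For 4 transporters, 1 agent went with values in opposite directions without and with the other agent, each with a counting interval of the read ratio on its own side of 0. These differences were not tested, since each treatment had 1 library. How many of all genes meet the same rule was not counted, so the 4 cannot be read as a trait of the transporters. The log2 difference for histidine in SLC7A11 was -0.17 alone and 0.63 with 6-MP present, a gap of 0.80. In SLC6A6 it was -0.13 alone and 0.11 with 6-MP, a gap of 0.24, and the second value was -0.031 with the median-ratio scaling. In SLC7A5 it was 0.09 alone and -0.24 with 6-MP, a gap of -0.33, and in SLC7A1 0.12 and -0.36, a gap of -0.48. The log2 difference for 6-MP was 0.06 alone and -0.27 with histidine in SLC7A5, a gap of -0.33, and 0.09 and -0.39 in SLC7A1, a gap of -0.48. For a gene, both gaps are the same departure from additivity.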

How the results depend on the processing

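No paired analysis was possible because no treatment has more than 1 library, and for the same reason no library could be left out. With a pseudocount of 0.1, 1 member reached a log2 difference of 1 in each combined comparison, SLC7A7 against vehicle and 6-MP and SLC7A11 against histidine, and 1 departed from additivity (SLC7A7). TPM scaling gives larger values, so that the pseudocount weighs less and 26 members and 17949 genes pass the filter. With it, 4, 4 and 2 members reached 1 against vehicle, 6-MP and histidine (all genes 17.3%, 16.2% and 15.7%). In the same order 10, 9 and 8 were higher by 0.58 (27.9%, 26.7% and 24.7%), and the medians were 0.37, 0.29 and 0.31 (0.23, 0.21 and 0.18). With no filter the median of all 46 against vehicle was 0.059 (all genes 0.066), and 8 were higher by 0.58 against vehicle (11.2%) and 8 against 6-MP (10.8%). With median-ratio scaling 3 were higher by 0.58 against vehicle (all genes 11.1%). At a threshold of 0.58, 5 differed in each combined comparison. Against vehicle, 6-MP and histidine, 16%, 15.4% and 14% of all genes were higher by it and 5.65%, 5.16% and 5.64% lower. With median-ratio scaling SLC1A5 turned to -0.050 against vehicle, SLC6A6 to -0.031 against 6-MP and SLC38A2 to -0.016 against histidine, by the scaling's own construction. Of the 105 single values per setting, 103 stayed near their value with the pseudocount of 0.1, 105 with TPM scaling and 71 with median-ratio scaling. Low members with few reads give wide intervals, and culture-to-culture spread is unknown.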
